A study of Mus musculus with 16 samples.

Results

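The cytosolic Hsp40 co-chaperones described here are 8 J-domain genes, chosen by symbol from a fixed list out of 23356 genes in the tables: the type A genes Dnaja1, Dnaja2 and Dnaja4 and the type B genes Dnajb1, Dnajb2, Dnajb4, Dnajb5 and Dnajb6. All 8 symbols were found in each of the 16 RNA-seq libraries. The libraries came from NIH3T3 cells, a mouse embryonic fibroblast line, and every group, the controls included, stably expressed DD-sfGFP, a destabilizing domain joined to superfolder GFP, in a pool that the study's methods describe as sorted for GFP. An untreated control (0 min) and cells exposed to bortezomib, a proteasome inhibitor, for 45, 135 and 405 min had 4 libraries each. Neither the labels nor the methods used here give the dose, no vehicle control was labelled for any of the later times, and nothing says whether the 4 libraries of a group came from separate cultures, so the p-values below measure the spread between these libraries only.

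J-domain proteins deliver unfolded clients to Hsp70 and stimulate its ATPase through a conserved histidine-proline-aspartate motif, so that the Hsp70 clamps onto the client. Type A members carry a zinc finger-like region after the J domain and a glycine- and phenylalanine-rich stretch, and type B members lack the zinc finger. In fibroblasts, as in other cells, blocking the proteasome lets damaged proteins accumulate and releases the transcription factor HSF1, which binds repeats of nGAAn (the heat shock element) in front of chaperone genes, Dnajb1 among them.

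The libraries fell into separate kinds before any member was considered. Totals ran from 570323 to 19930375 fragments. The share of fragments in ribosomal protein genes (97 symbols that begin Rpl or Rps and a digit, a few S6 kinases among them) was between 4.25% and 9.42% in 7 libraries and between 0.398% and 1.21% in the other 9, and no library lay between 1.21% (control replicate 2) and 4.25% (405 min replicate 3). The 7 libraries over 4% were replicates 1 and 2 at 45 min, replicates 1 and 2 at 135 min and replicates 1, 3 and 4 at 405 min. All 4 controls were among the 9 at 4% or less. Olfactory and vomeronasal receptor genes, which a fibroblast should not express, held 4.16% to 5.13% of fragments in those 9 libraries and 0.00556% to 2.62% in the 7. The 10 fibroblast markers, collagens and vimentin among them, summed to between 3493 and 22084 CPM (fragments of a gene in each 1000000 of the library) in the 7 libraries and to between 294 and 1709 CPM in the 9. The 5 epithelial, 5 blood and 5 neuronal markers summed to at most 96.7, 69.3 and 85.9 CPM in the 7 libraries, with at least 1 of each 5 at 0 somewhere. In the 9 others, controls included, the same lists summed to 142 to 198, 54.5 to 160 and 107 to 227 CPM, and thus moved with library kind. Library kind and treatment cannot be told apart where controls are compared with treated libraries, so each course is also given within the 7 libraries over 4% and within the 9 others.

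Heat shock element letters stood in front of 4 of the 8 genes. The RefSeq promoter table (GRCm38.p6) matched all 8 members, with 17 start sites, and the 250 bases before each were searched on both strands for the pair GAANNTTC or TTCNNGAA. Dnaja1, Dnaja4, Dnajb4 and Dnajb6 held it, as did 12.8% of 32851 windows of that length and 14.6% of 27025 genes. The longer run GAANNTTCNNGAA or TTCNNGAANNTTC was found only in front of Dnajb6 among the members and in 0.466% of windows. The lines below show these stretches because they carry the letters, and Dnajb1 because it had the largest fold of the members from 45 to 405 min in the libraries over 4%; each is written 5′ to 3′ on the gene's strand, with the repeat letters in capitals.
Dnaja1, chr4:40722304-40722391, + strand, pair 124 bases before the start site: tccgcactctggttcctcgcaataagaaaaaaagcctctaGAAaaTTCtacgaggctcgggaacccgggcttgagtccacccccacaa
Dnaja4, chr9:54699429-54699554, + strand, pairs 90 and 52 bases before the start site: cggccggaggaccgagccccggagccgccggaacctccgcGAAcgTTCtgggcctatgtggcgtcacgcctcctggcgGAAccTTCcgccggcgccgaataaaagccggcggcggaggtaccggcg
Dnajb1, chr8:83608075-83608174, + strand, the 100 bases before the first start site, no match: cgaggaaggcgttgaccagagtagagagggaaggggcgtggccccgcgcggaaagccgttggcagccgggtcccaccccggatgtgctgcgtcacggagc
Dnajb4, chr3:152193846-152193899, − strand, pair 14 bases before the second start site: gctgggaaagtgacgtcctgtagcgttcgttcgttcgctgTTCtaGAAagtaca
Dnajb6, chr5:29735812-29735897, + strand, overlapping pairs 46 and 41 bases before the first start site: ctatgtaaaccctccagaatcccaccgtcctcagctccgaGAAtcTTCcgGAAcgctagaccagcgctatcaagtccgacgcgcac
The Dnaja1 pair stood before the first start site of that gene and the Dnaja4 pairs before the second, and other windows of these genes held no match. Dnaja2, Dnajb1, Dnajb2 and Dnajb5 held no pair in their windows, which says only that these letters were not there. The pair stood before 2 of 3 type A and 2 of 5 type B genes, and the letters are a description, not a mapped binding site.

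Dnajb1, the main type B partner of inducible Hsp70, had the largest fold of the set from 45 to 405 min in the libraries over 4%. Its level was 51.9, 44.1, 40.4 and 32.4 CPM in control replicates 1 to 4. At 45 min it was 18.8 and 20.5 CPM in the libraries over 4% and 37.4 and 80.1 CPM in the others. At 135 min the corresponding values were 82.4 and 97.5 CPM, then 40.3 and 32.9 CPM. At 405 min replicates 1, 3 and 4, all over 4%, had 797, 89.5 and 400.3 CPM, and replicate 2 had 49.4 CPM. Within the libraries over 4%, both 135 min values and all 405 min values lay above both 45 min values, while the 135 and 405 min ranges overlapped through 405 min replicate 3. In the other libraries 4 of the 5 treated values lay within the control range, and 80.1 CPM at 45 min lay above it. Being bulk measurements, these levels cannot tell fewer expressing cells from less RNA per cell.

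Dnaja1, an abundant farnesylated type A member, was high in every library over 4%. The control libraries had 103, 218, 81.9 and 55.5 CPM. At 45 min Dnaja1 had 324 and 733 CPM in the libraries over 4% and 76.2 and 24.0 CPM in the others. At 135 min it had 2372 and 781 CPM, against 75.4 and 89.7 CPM. At 405 min it had 1206, 2163 and 1532 CPM in replicates 1, 3 and 4 and 334 CPM in replicate 2. Every 405 min library, replicate 2 included, lay above the highest control, and every library over 4% at 135 or 405 min lay above both at 45 min. Dnaja1 counts are uncertain to the extent that fragments were shared: the GENCODE M1 annotation names a processed copy, Dnaja1-ps, and Smu1 and Gm6297 overlap Dnaja1 on the opposite strand, with no statement that counting used strand.

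Dnaja4, a farnesylated type A member that heat shock and sterol depletion are known to induce, was the scarcest type A gene at 45 min in the libraries over 4%. Controls had 10.2, 33.7, 38.1 and 23.1 CPM. In the libraries over 4% Dnaja4 went from 2.77 and 10.2 CPM at 45 min to 37.7 and 18.8 CPM at 135 min and to 142, 34.7 and 115 CPM at 405 min. The 45 min values lay below all values of the later times, and 405 min replicate 3 lay within the 135 min range. In the other treated libraries Dnaja4 had 16.3 and 14.4 CPM at 45 min, 0 and 1.14 CPM at 135 min and 36.4 CPM at 405 min. The count of 0 in 135 min replicate 3, the shallowest library, allows up to 5.26 CPM. Dnaja4 overlaps Wdr61 on the opposite strand.

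Dnaja2, the type A member that cells make without stress, separated the library kinds. Controls had 46.3, 46.4, 20.2 and 0 CPM, the last of which allows up to 3.47 CPM. The libraries over 4% had 383 and 227 CPM at 45 min, 192 and 253 CPM at 135 min and 325, 150.2 and 449 CPM at 405 min. The other treated libraries had 27.9 and 60.9 CPM at 45 min, 59.6 and 42.0 CPM at 135 min and 54.6 CPM at 405 min. All 3 times overlapped among the libraries over 4%, and every one of these 7 lay above every one of the other 9. The separation was not particular to Dnaja2, as the summed fibroblast markers showed it too (3493 to 22084 against 294 to 1709 CPM). The share of all genes that separated in this way is not given here. Every 405 min library, replicate 2 included, lay above the highest control.

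Among the remaining type B genes, Dnajb4, a muscle-enriched homolog of Dnajb1, and Dnajb2, a ubiquitin-binding member best known from neurons, were also higher late than at 45 min in the libraries over 4%. Dnajb4 had 43.0 and 110.0 CPM at 45 min, 311 and 120.1 CPM at 135 min and 150.3, 191 and 148 CPM at 405 min, with controls from 19.7 to 54.2 CPM. Dnajb2 had 7.02 and 4.42 CPM at 45 min, 10.5 and 16.6 CPM at 135 min and 50.2, 44.0 and 9.13 CPM at 405 min. Dnajb2 in the controls, from 18.5 to 63.2 CPM, lay above all 4 earlier libraries over 4%. In the other treated libraries Dnajb4 ran from 0 CPM (135 min replicate 3, where up to 5.26 CPM is allowed) to 73.8 CPM and Dnajb2 from 3.51 to 99.3 CPM, with no order by time.

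Dnajb6, a suppressor of polyglutamine aggregation found in the cytosol and nucleus, and Dnajb5 overlapped between the treated times in the libraries over 4%. Dnajb6 had 138 to 188 CPM in controls, 189.9 and 161 CPM at 45 min in the libraries over 4%, 91.0 and 224 CPM at 135 min and 294, 143 and 297 CPM at 405 min. Without 405 min replicate 3, the remaining 405 min libraries over 4% (294 and 297 CPM) lay above the earlier ones. In the other treated libraries it had 45.6 to 254 CPM, both extremes at 135 min. Dnajb6 overlaps Gm5129 on the opposite strand. Dnajb5 had 22.1 to 32.8 CPM in controls but 0 to 14.4 CPM in the libraries over 4%, and it stood at 0 in 45 min replicate 2 (which allows 0.491 CPM), 135 min replicate 1 (0.951 CPM) and 135 min replicate 4 (3.41 CPM). In the other treated libraries Dnajb5 had 35.4 and 4.81 CPM at 45 min, 87.7 and 0 CPM at 135 min and 18.2 CPM at 405 min, so that its highest value of all 16 libraries was among them. All 4 libraries at 405 min lay below all controls.

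**Figure D1:**
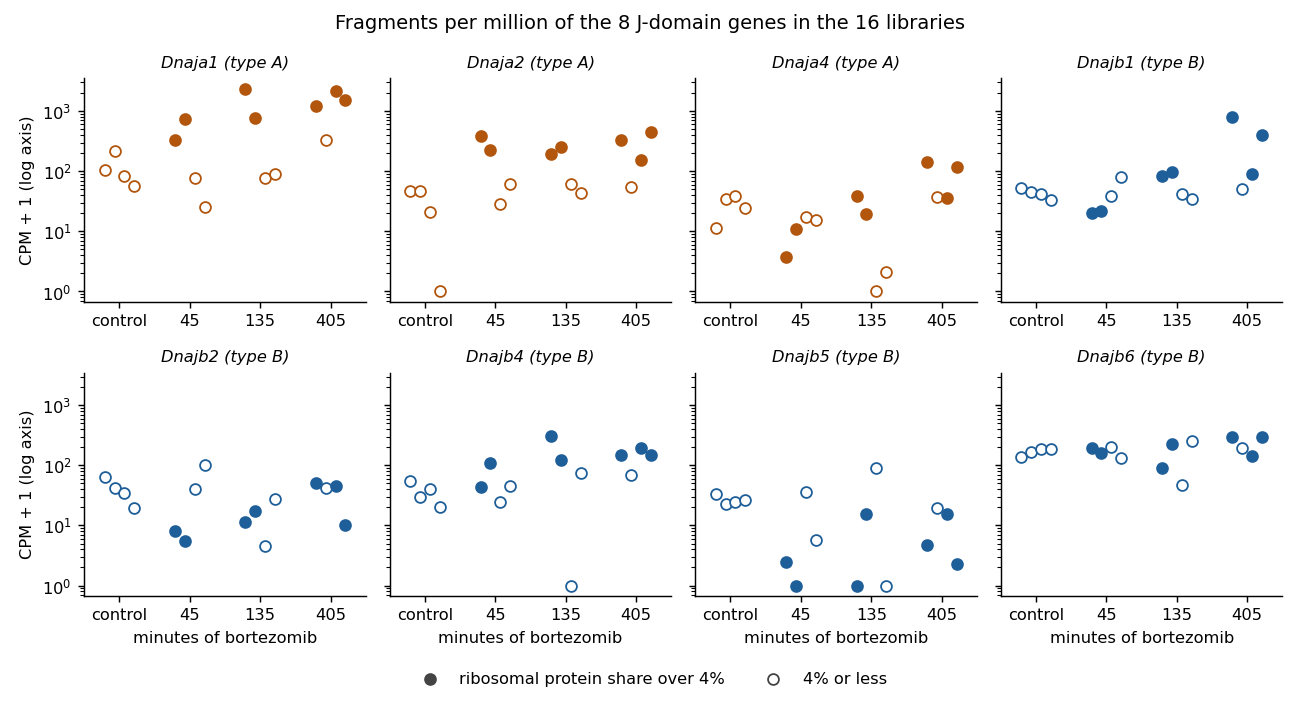
Level of each J-domain gene as CPM + 1 on a log axis against minutes of bortezomib, 1 point per library (4 per time), filled where ribosomal protein genes held over 4% of fragments and open otherwise. Orange is type A and blue type B; filled Dnajb1 points go from 18.8 and 20.5 CPM at 45 min to between 89.5 and 797 CPM at 405 min, while filled Dnaja2 points stay between 150.2 and 449 CPM.

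Compared per length of annotated exon (fragments per kilobase in each 1000000), the order of levels differed between controls and treated libraries over 4%. Library kind and treatment cannot be told apart in that comparison. In the 4 controls Dnajb6 was first at 29.7 ± 4.10 (SD, n = 4) and Dnajb5 last at 4.37 ± 0.798 (SD, n = 4), and each gene overlapped the next in the order. In the 45 min libraries over 4% (n = 2) Dnaja2 (107) and Dnaja1 (61.2) led and their ranges overlapped, then came Dnajb6, Dnajb4, Dnajb1, Dnajb2, Dnaja4 and Dnajb5 (0.124), none of which overlapped the next. At 405 min (n = 3) Dnaja1 at 189 ± 56.4 and Dnajb1 at 174 ± 144 (SD) led with overlapping ranges, Dnaja2 followed at 108.5 ± 52.9 (SD, n = 3), and Dnajb5 stayed last at 1.10. Dnajb1 stood at rank 5 at 45 min and at rank 2 at 405 min on this scale. With the lengths implied by the deposited FPKM, Dnaja1 and Dnajb1 again led at 405 min, but Dnajb6 led at 45 min. The control order depended on the lengths too. By deposited FPKM Dnajb6 (84.9, from 81.8 to 87.2) led the controls without overlap with the next gene, Dnaja1 (17.6). Dnaja4 (7.81), not Dnajb5 (10.3), was last there. In the 45 min libraries at 4% or less (n = 2), per annotated exon, Dnajb2 (49.2), Dnajb6 (29.1) and Dnajb1 (23.8) led with overlapping ranges. Dnajb5 (3.38) was last there, as in the controls.

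In the controls the members as a mean stood no higher per length than J-domain genes that a fibroblast is not known to use. The mean over the 4 type B genes of testis (Dnajb3, Dnajb7, Dnajb8 and Dnajb13) was 14.0 to 19.3 fragments per kilobase in each 1000000 in controls, and the mean over the 8 members was 10.1 to 17.4. Single members differed in the controls, from Dnajb6 at 24.1 to 32.9, above the testis mean, to Dnajb5 at 3.72 to 5.52, below it. In the libraries over 4% the testis genes had 0 to 6.53 and the members 28.7 to 92.3. The receptor share, 4.16% to 5.13% against 0.00556% to 2.62%, moved with this, and its part in the control levels was not tested.

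Within the 7 libraries over 4%, the course was fitted with edgeR's quasi-likelihood test over 8605 genes with at least 1 count in each of these libraries, a filter that 7 members passed and Dnajb5 did not. From 45 to 405 min the log2 fold change was 4.44 for Dnajb1 (SE 0.97, unadjusted p = 0.000905, adjusted p = 0.672), a 21.7-fold difference that ranked 38th from the top. Dnaja4 came next at 3.93 (SE 0.97, unadjusted p = 0.00211, adjusted p = 0.69) then Dnajb2 at 2.53 (SE 0.92, unadjusted p = 0.0195, adjusted p = 0.69). Dnaja1 had 1.62 (SE 0.88), Dnajb4 1.08 (SE 0.70), Dnajb6 0.51 (SE 0.63) and Dnaja2 0.07 (SE 0.67). All 7 values were positive, as were 55.7% of those of all genes, and the median over all genes was 0.14. No gene passed an adjusted p under 0.05 by edgeR (0 of 8605, 0.0%). At an unadjusted p under 0.05, 3 of the 7 members were on the higher side and none on the lower, where all genes gave 3.01% (259) and 4.15% (357). DESeq2 on the same counts called 41 genes higher and 21 lower, Dnajb1 (adjusted p = 2.83e-05) and Dnaja4 (adjusted p = 0.00293) among them. Over all alternatives the adjusted p ran from 2.83e-05 to 0.99997 for Dnajb1 and from 0.00293 to 0.99997 for Dnaja4, and neither passed by edgeR with the stated filter.

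The course is given next in its 2 steps, and differences between members were not tested. From 45 to 135 min Dnajb1 had a log2 fold change of 2.08 (SE 0.90, unadjusted p = 0.0427, adjusted p = 0.997 by edgeR), Dnaja4 2.07 (SE 0.93), Dnaja1 1.54 (SE 0.93) and Dnajb4 1.45 (SE 0.76). Dnajb2 had 1.11 (SE 0.92), Dnajb6 -0.32 (SE 0.68) and Dnaja2 -0.57 (SE 0.74) in that step. From 135 to 405 min Dnajb1 had a further 2.37 (SE 0.87, unadjusted p = 0.0204, adjusted p = 0.909 by edgeR) and Dnaja4 1.86 (SE 0.87), while Dnaja1 had 0.08 (SE 0.83) and Dnajb4 -0.37 (SE 0.68). Dnajb2 had 1.42 (SE 0.87), Dnajb6 0.83 (SE 0.64) and Dnaja2 0.64 (SE 0.68). With a library left out, this step of Dnaja1 ran from -0.58 to 1.27. The estimates of Dnaja1, Dnajb4 and Dnaja2 for this last step lay within 1 SE of 0. Those of Dnajb1 and Dnaja4 lay more than 2 SE above it, that of Dnaja4 with an unadjusted p of 0.056 (adjusted p = 0.909 by edgeR). In raw terms, 5 of 8 members (Dnaja1, Dnaja4, Dnajb1, Dnajb2 and Dnajb4) had all 405 min values above all 45 min values, as did 8.88% of 22279 genes with a count, and the same 5 had both 135 min values above both 45 min values, as did 18.5%. No member lay wholly below 45 min at 405 min (6.76% of genes did) or at 135 min (5.82%). No member had all 405 min values above both 135 min values (2.56% of genes did) or all below (6.87%). Without 405 min replicate 3 those of Dnaja2, Dnaja4, Dnajb1 and Dnajb6 lay above (10.1% of genes), and 6 members, now with Dnajb6, lay above 45 min (13.9%). Without that library, which held 2.62% receptor fragments, the highest of the 7, the log2 fold change of Dnajb1 from 45 to 405 min was 4.92 and that of Dnaja4 4.34. The 10 fibroblast markers had a median log2 fold change of -1.62 from 45 to 405 min in the same libraries, and their part in the members' values was not tested.

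**Figure D2:**
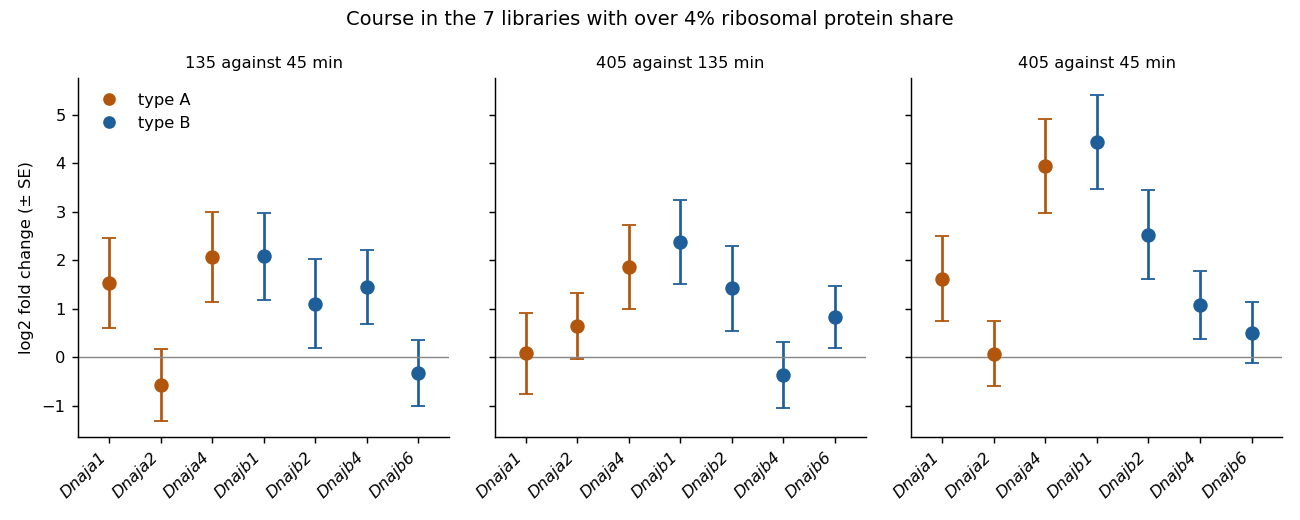
log2 fold change with SE bars from edgeR for 7 members in the 7 libraries with over 4% ribosomal protein share, for 135 against 45 min, 405 against 135 min and 405 against 45 min; orange is type A and blue type B. Dnajb1 (4.44) and Dnaja4 (3.93) stand highest from 45 to 405 min, and Dnaja1 (0.08) lies near 0 between 135 and 405 min.

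Against the untreated control, only 4 members passed the filter of 1 count in each of the 16 libraries (Dnaja1, Dnajb1, Dnajb2 and Dnajb6), among 5030 genes. At 405 min the log2 fold change was 3.86 for Dnaja1 (SE 1.39, unadjusted p = 0.0121) and 3.36 for Dnajb1 (SE 0.83, unadjusted p = 0.000772), both with an adjusted p of 0.285 by edgeR. Dnajb6 had 0.78 (SE 0.62) and Dnajb2 0.11 (SE 0.79). At 135 min Dnaja1 had 3.27 (SE 1.35, unadjusted p = 0.026, adjusted p = 0.513 by edgeR), Dnajb1 0.82 (SE 0.77), Dnajb6 0.0067 (SE 0.62) and Dnajb2 -1.28 (SE 0.81). At 45 min Dnaja1 had 1.81 (SE 1.28), Dnajb1 -0.0019 (SE 0.77), Dnajb6 0.27 (SE 0.62) and Dnajb2 -0.07 (SE 0.80). By edgeR no gene passed at any time (0 of 5030, 0.0%), while 14.5% were higher (728 genes, Dnaja1 and Dnajb1 among them) and 1.51% lower (no member) at an unadjusted p under 0.05 at 405 min. The same count of higher genes was 7.83% at 135 min (394, with Dnaja1) and 12.1% at 45 min (609, no member), and of lower genes 1.35% and 0.775%, no member among them. DESeq2 called 351 genes higher and 1 lower at 405 min, with Dnaja1 (adjusted p = 0.021) and Dnajb1 (adjusted p = 0.00242) among those higher.

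The 4 members that the filter removed were set against the control on the log2(CPM + 1) scale by a two-sided exact permutation test each time, 12 tests in all, and 4 against 4 libraries cannot give a p below 0.0286. At 405 min Dnaja2 differed by 3.67 and Dnajb4 by 1.94, both higher in 4 of 4 libraries, and Dnajb5 by -1.82, lower in 4 of 4. Each of these 3 reached an exact p of 0.0286 and an adjusted p of 0.114. Dnaja4 differed by 1.48 at 405 min (exact p = 0.114, adjusted p = 0.196). With Dnaja1, 3 of 8 members had all 405 min values above all controls, as did 2.68% of 22359 genes, and Dnajb5 had all below, as did 7.42%. None of the 8 was separate from the controls at 45 min (0.698% of genes above, 4.36% below) or 135 min (0.729% above, 8.85% below).

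Against control, the estimates of Dnaja1 and Dnajb6 at all 3 times were lower within libraries of the controls' own kind than in all 16. Those of Dnajb1 were lower at 135 and 405 min and higher at 45 min. For Dnajb2 the 2 fits were close at 135 min (-1.39 against -1.28 in all 16) and at 405 min (0.09 against 0.11). At 45 min Dnajb2 was higher within the controls' own kind (0.81 against -0.07). Among the 9 libraries at 4% or less (8366 genes tested, 4 members), Dnaja1 had a log2 fold change of -1.14 (SE 0.58) at 45 min, -0.57 (SE 0.57) at 135 min and 1.55 (SE 0.64, unadjusted p = 0.0288, adjusted p = 0.9999 by edgeR) at 405 min, where 1 library stood for the group and was assumed to vary like the others. Dnajb1 had 0.46 (SE 0.57), -0.32 (SE 0.60) and 0.23 (SE 0.74) at the 3 times. In the same order Dnajb6 had -0.015 (SE 0.52), -0.20 (SE 0.52) and 0.17 (SE 0.66). Dnajb2 had 0.81 (SE 0.74), -1.39 (SE 0.84) and 0.09 (SE 0.99). No member passed. The genes called at 405 min were Hspa1b (log2 fold change 5.31, adjusted p = 0.000429) and Hsp90aa1 (3.37, adjusted p = 0.0257), 0.0239% of those tested by edgeR, the second of which is named after its value was seen. With library kind as a term in the fit of all 16 libraries, the log2 fold change of Dnaja1 was -1.14 at 45 min (1.81 without the term), 0.040 at 135 min (3.27) and 0.77 at 405 min (3.86). With the same term Dnajb1 had 2.41 at 405 min (3.36 without it) and Dnajb2 1.002 (0.11), none of them past the test (adjusted p = 0.995 by edgeR for each at 405 min).

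From 45 to 405 min the log2 fold change of Dnajb1 was 4.34 in the libraries over 4% and -0.23 in the others, where replicate 2 alone stood for 405 min and was assumed to vary like the other groups. The difference of 4.57 (SE 1.29) did not pass (unadjusted p = 0.00244, adjusted p = 0.935 by edgeR). None of 5030 genes passed that comparison (an interaction fit added after the data were seen). For Dnaja1 the difference was -1.23 (SE 1.35), with 1.49 over 4% and 2.72 in the others.

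**Figure D3:**
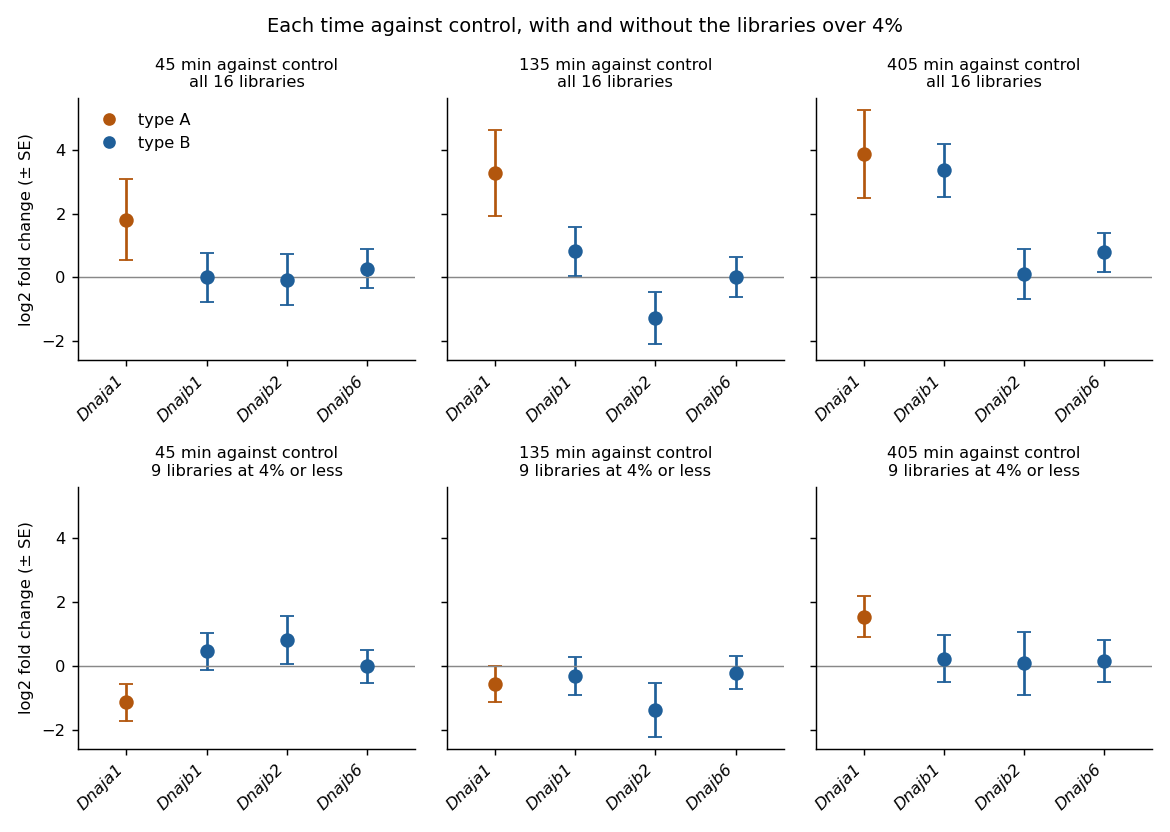
log2 fold change with SE bars from edgeR at 45, 135 and 405 min against control for the 4 members with a count in every library, in all 16 libraries (top) and in the 9 libraries at 4% or less (bottom, with 1 library at 405 min); orange is type A and blue type B. Dnajb1 at 405 min is 3.36 in the top row and 0.23 in the bottom row, and Dnaja1 is 3.86 and 1.55.

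Large and small estimates occurred in both types. In the libraries over 4% the median log2 fold change from 45 to 405 min was 1.62 over the 3 type A genes (range 0.07 to 3.93) and 1.80 over the 4 type B genes tested (range 0.51 to 4.44), beside 0.14 over all genes. From 45 to 135 min the medians were 1.54 and 1.28. The highest estimates were those of Dnaja4 in type A and Dnajb1 in type B, and the lowest those of Dnaja2 and Dnajb6.

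The share of the 8 genes' fragments that were type A separated the library kinds at every treated time, narrowly at 405 min. It was 31.9%, 49.6%, 30.3% and 21.7% in the controls, and the counts behind these shares were 314 to 518 fragments, so that the 95% Wilson interval of the lowest was 17.5% to 26.5% (counting error only). In the libraries over 4%, the 45 min shares were 73.2% and 76.6%, the 135 min shares 84.0% and 69.0%, and the 405 min shares 56.4%, 83.0% and 71.0%. In the other treated libraries it was 26.2% and 21.7%, then 43.3% and 25.5%, then 53.7%. The 95% Wilson interval of the last, 49.7% to 57.6%, held the 56.4% of 405 min replicate 1. The lowest share among the libraries over 4% was that of 405 min replicate 1, where Dnajb1 held 26.9% of the 8 genes' fragments. Dnajb1 counts among the 8 genes, so a high Dnajb1 level lowers the type A share by construction.

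Dnajb1 fragments per Dnaja1 fragment, a ratio within each library that needs no scaling, were 0.505, 0.202, 0.493 and 0.583 in the controls. In the libraries over 4% the 45 min ratios were 0.0581 and 0.0279, the 135 min ratios 0.0348 and 0.125, and the 405 min ratios 0.661, 0.0414 and 0.261. In the other treated libraries they were 0.491 and 3.33, then 0.535 and 0.367, then 0.148 at 405 min, the last below every control and the 3.33 above. The log2 ratio differed from control by -0.86 at 45 min, -1.28 at 135 min and -1.21 at 405 min (exact permutation p = 0.514, 0.229 and 0.257, adjusted p = 0.514, 0.386 and 0.386, n = 4 per group). Each difference lay within the SD of its treated libraries (1.66 to 3.07). The direction at 45 min rested on 45 min replicate 2, without which the difference was 0.14.

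**Figure D4:**
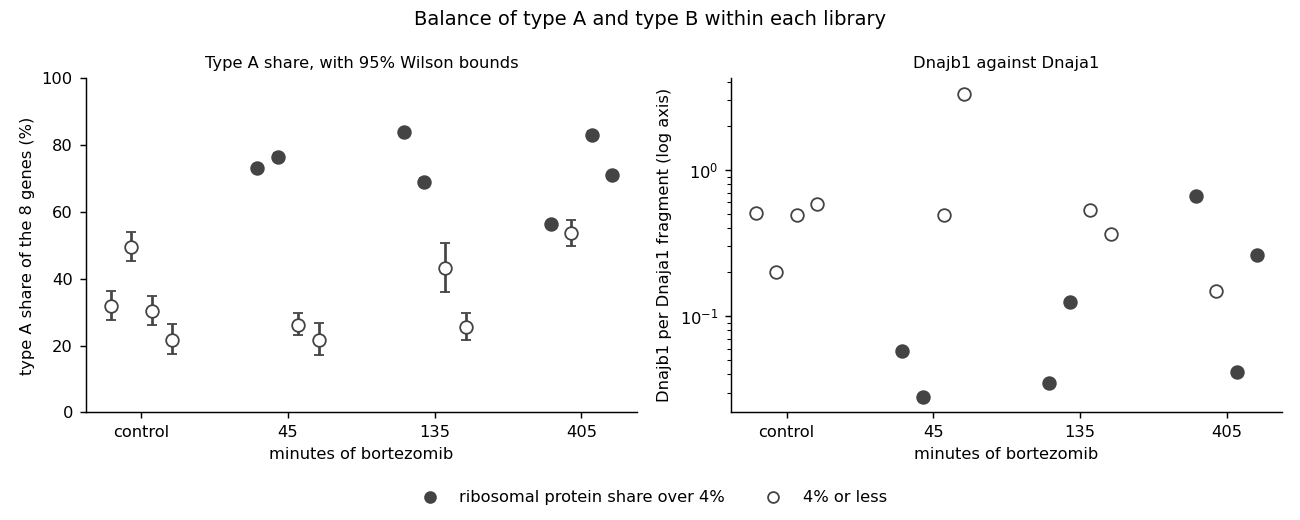
Left, type A share in percent of all fragments of the 8 genes in each library, with 95% Wilson bounds; right, Dnajb1 fragments per Dnaja1 fragment on a log axis; 4 libraries per time, filled where ribosomal protein genes held over 4%. Filled shares lie between 56.4% and 84.0% and open shares between 21.7% and 53.7%.

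The genes whose log2(CPM + 1) followed Dnajb1 most closely over the 7 libraries over 4%, among 9391 genes with a mean of at least 10 CPM, were Sulf2, a heparan sulfate sulfatase (Pearson r = 0.981), Slc7a1, a cationic amino acid transporter (0.975), the inducible Hsp70 gene Hspa1a (0.974), the Hsp70 co-chaperone Bag3 (0.960) and Zc3hav1, an antiviral zinc finger protein (0.951). Dnaja4 came eighth (r = 0.946), and Dnaja1 had r = 0.530. In levels, Hspa1a, whose fragments the near-identical Hspa1b could share, went from 0 and 1.15 CPM at 45 min to between 16.6 and 493 CPM at 405 min, and Bag3 from between 39.6 and 44.3 CPM to between 57.0 and 399 CPM. The genes nearest Dnaja1 were Taf4b, a TFIID subunit (r = 0.984), the nuclear receptor Nr1d2 (0.979), the lipid kinase Pi4k2b (0.976), the ubiquitin ligase Peli1 (0.972) and Qtrtd1 (0.970). Dnajb4 followed Dnaja1 at r = 0.958, eleventh in order, and Dnaja2 had r = -0.495. These coefficients describe 7 libraries that also differ in depth and receptor share.

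Of 20 Hsp70 genes and partners (nucleotide exchange factors, co-chaperones and the heat shock factors), 17 were tested in the libraries over 4%, and 13 had a positive log2 fold change from 45 to 405 min, with a median of 0.97. Hspa1b (5.74), Hsph1 (3.89) and Bag3 (2.41) were the 3 past an unadjusted p of 0.05, all on the higher side, where 3.01% of all genes were past it on that side and 55.7% were positive. Constitutive Hspa8 had 2.40 (SE 1.30). Against the control in all 16 libraries at 405 min, 11 of 12 tested partners were positive with a median of 3.11, where 53.1% of all genes were positive and their median was 0.11. At an unadjusted p under 0.05, 9 partners stood on the higher side and 1 on the lower, beside 14.5% and 1.51% of all genes. The fibroblast markers moved the same way in that comparison, with 8 of 8 tested positive and a median of 2.86, and their part in the partners' values was not tested. Among the 9 libraries at 4% or less the partners had a median of 0.66 at 405 min, with 9 of 12 positive and 4 on the higher side at an unadjusted p under 0.05 (0.215% of all genes), and the fibroblast markers 0.38. Among those 9 libraries, replicate 2 alone stood for 405 min and was assumed to vary like the other groups. All the 405 min values there share that 1 library, so the partners' count beside the share of all genes describes it and not a group. Hsf1 did not pass the filter of any fit. It had a count of 0 in 45 min replicate 2 (over 4%) and control replicate 1 (4% or less), among others. Its level was 0 to 17.7 CPM at 45 min and 18.8 to 58.4 CPM at 405 min in the libraries over 4%, and 0 to 39.3 CPM in controls.

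J-domain genes outside the list of members had lower medians in the libraries over 4%. The 10 genes of the endoplasmic reticulum had a median log2 fold change of 0.29 from 45 to 405 min, 7 positive and none past an unadjusted p of 0.05. The 3 of 6 mitochondrial genes that were tested had a median of -1.33, all negative. The 10 of 14 other cytosolic J-domain genes that were tested, mostly type C, had a median of 0.11, and 6 were positive. None of these lists had a member called by edgeR, and the lists' medians stand beside 0.14 over all genes. Against control at 405 min in all 16 libraries, the reticulum genes had a median of 2.05 (7 tested) and the other cytosolic genes 1.99 (4 tested). The type B members had 0.78 there (3 tested) and Dnaja1 3.86, beside 0.11 over all genes. Among the 9 others, with 1 library at 405 min, the reticulum, mitochondrial and other cytosolic lists had 0.30, 0.93 and 0.02. The type B members had 0.17 and Dnaja1 1.55.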

How the data were processed

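RNA-seq libraries of 4 groups (untreated, and 45, 135 and 405 min of bortezomib; 4 libraries each) were compared by the labelled time. Per the labels, total RNA was extracted with a column kit and libraries were made with a NuGEN Encore kit; the methods add poly(A) selection, HiSeq sequencing and mapping to RefSeq genes. The methods name the mouse build mm9 and the submitters' processing notes mm10. The authors deposited, for each library, expected counts of fragments per gene and FPKM. Between 98.4% and 99.8% of the deposited counts were whole (within 0.001), and the rest were rounded. A total of 27 symbols that began with a digit, as dates from a spreadsheet do, were restored by row from the other tables. No pair of libraries held identical values.

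edgeR 4.0.16 (quasi-likelihood, TMM factors, 1 mean per time) was fitted to genes with at least 1 count in every library of the fit, with Benjamini-Hochberg adjustment over all genes tested and a threshold of 0.05, in all 16 libraries, in the 7 whose ribosomal protein share exceeded 4%, and in the 9 others. The authors' deposited FPKM served only for an alternative order of levels. Lengths came from GENCODE M1, which held 21022 symbols (90.01%). Levels are CPM of all fragments, with a pseudocount of 1 on the log scale. Exact tests used scipy 1.17.1. The fits were tested on simulated counts. Genes were named by rule: the 8 members, Hspa8, Hspa1b, Hsph1, Bag3 and Hsf1, and the 5 genes closest to Dnajb1 and to Dnaja1. The members and lists were chosen with earlier results of these data known. Alternatives were RLE factors, 2 other filters, DESeq2 1.42.0, a replicate block, a term for library kind, thinning to 570323 fragments, pseudocount 5 and leaving out each library. The dispersion within groups was 0.625 in the fit of 16 libraries, 0.466 in that of 7 and 0.258 in that of 9. Intervals cover counting error only.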

Additional observations from a re-analysis of the deposited data

Results flagged for a closer look

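Dixon's ratio was taken in 36 sets of 4 libraries (8 members and the ratio of Dnajb1 to Dnaja1, each in 4 groups) and passed its 95% critical value in 2, where chance alone gives about 1.8. The log2 ratio of Dnajb1 to Dnaja1 was -2.28 in control replicate 2 against -1.002 to -0.76 in the other controls (ratio 0.841); this library had the highest ribosomal protein share of the 9 at 4% or less, 1.21%. The log2(CPM + 1) of Dnajb2 was 3.34 in 405 min replicate 4 against 5.41 to 5.68 in the other 405 min libraries (ratio 0.887); replicate 4 was the deepest library.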

How the results depend on the processing

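No member was called by edgeR in the fits as reported, and few were under any alternative; 1114 values of single members under an alternative kept their sign and side of the threshold, 60 turned in sign and 7 passed. The members called were, under DESeq2, Dnajb1 and Dnaja1 at 405 min against control, Dnajb1 from 45 to 405 min in all libraries (3.22, adjusted p = 0.0121), and Dnajb1 and Dnaja4 from 45 to 405 min over 4%; without a filter, Dnajb1 over 4% (4.31, adjusted p = 0.0214); and without 135 min replicate 4, Dnajb6 at 135 min among the 9 (-2.17, adjusted p = 0.0246, with the lone 135 min library assumed to vary like the other groups). Why these settings differ was not tested. The replicate block, whose numbers do not pair the libraries (mean correlation 0.0734 over 24 pairs, from -0.761 to 0.611), called no gene, as without it, and turned Dnajb6 at 135 min against control to -0.15 (adjusted p = 0.931).

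In all 16 libraries DESeq2 called against control 224 genes higher (45 min), 8 (135 min) and 351 (405 min, with 1 lower), and from 45 to 405 min 3 higher and 2 lower; filterByExpr and no filter each called 1 lower at 405 min against control and 2 lower against 45 min, and 1 and 2 lower against 135 min. Over 4%, from 45 to 405 min, filterByExpr called 2 higher and 4 lower, no filter 10 and 6, DESeq2 41 and 21, and the added fit with a mean for each time and kind 1 lower; from 45 to 135 min no filter and DESeq2 called 3 higher; from 135 to 405 min filterByExpr called 4 lower and no filter 4 in each direction. Among the 9, at 135 min filterByExpr called 8 lower, no filter 27, the added fit 6 and DESeq2 12 higher and 111 lower, and at 405 min filterByExpr and no filter 1 in each direction, DESeq2 1 lower and the added fit 0 higher. Leaving out a library gave 0 to 52 higher and 0 to 416 lower at 135 min among the 9, the most without 135 min replicate 4, and 1 to 3 higher at 405 min; all other counts stayed at 0.

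The signs that turned were these. Dnajb1 at 45 min against control was 0.21 under either other filter and -0.49 to 0.23 with a library left out. Dnajb2 at 405 min against control was -0.029 under RLE and DESeq2 and -0.18 to 0.33 with a library left out; at 45 min it was 0.094 with library kind as a term and -1.13 to 0.31, and from 45 to 405 min -0.30 to 1.21. Dnajb6 at 135 min against control was -0.31 thinned, -0.26 with library kind as a term and -0.35 to 0.37 with a library left out, from 45 to 135 min -0.51 to 0.093, and at 45 min -0.021 with library kind as a term. Dnaja1 at 45 min was -1.14 with that term, and from 45 to 135 min (1.46) -0.32 to 2.81 with a library left out, the lowest without 135 min replicate 1. Over 4%, Dnaja2 from 45 to 405 min was -0.0065 under filterByExpr, -0.0067 with no filter and -0.47 to 0.47, and from 45 to 135 min 0.20 thinned; Dnaja1 from 135 to 405 min was -0.054 under filterByExpr, -0.053 with no filter, -0.011 in the added fit and -0.58 to 1.27; Dnajb6 from 45 to 135 min was 0.13 thinned and -0.90 to 0.10; Dnajb4 from 135 to 405 min was -0.98 to 0.65. Among the 9, Dnajb6 at 45 min was 0.10 thinned and -0.40 to 0.28, and at 135 min -2.17 to 0.54; Dnajb1 at 405 min was -0.062 thinned and at 45 min -0.15 to 0.91; Dnajb2 at 405 min was -0.14 to 0.45. The log2 ratio of Dnajb1 to Dnaja1 against control ranged from -2.13 to 0.14 at 45 min, from -1.83 to -0.51 at 135 min and from -1.83 to -0.50 at 405 min, and the exact difference of Dnajb4 at 135 min from -0.72 to 2.05. The cause was not tested. Depth limits the 9 libraries, where a member had 0 to 298 fragments.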
